A study of Homo sapiens with 4 samples.

Results

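The genes considered here encode CTCF and the cohesin complex with its loading and release factors: CTCF, RAD21, SMC1A, SMC3, STAG1, STAG2, NIPBL, WAPL (listed under its older symbol WAPAL), PDS5A and PDS5B. These 10 genes were picked by name from the 63677 genes of the count files, on primary chromosomes, and each matched 1 identifier. Their mRNA was measured by RNA-seq in IMR90, a line of human lung fibroblasts. The control group holds 2 libraries from cells given a non-targeting siRNA, and the knockdown group holds 2 libraries from cells given siRNA against HMGB1, a DNA-bending chromatin protein. Transfection with the lipid reagent RNAiMAX lasted 72 h in all 4 libraries. The study's methods mention 2 siRNAs for this line, and the labels do not tell which library received which. In each group, replicate 1 was the isolate I90-10 and replicate 2 the isolate I90-79, both at passage 5 in the growth protocol and with no other alteration named in the labels. Since both groups hold 1 library per isolate, p-values measure only the spread between these libraries. In bulk RNA, fewer cells that express a gene and less of its RNA per cell cannot be told apart.

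Cohesin is a ring built from SMC1A, SMC3 and RAD21, to which either STAG1 or STAG2 binds. NIPBL with its partner MAU2 loads the ring on chromatin, WAPL with the PDS5 proteins releases it, and moving cohesin extrudes DNA loops that stop at sites bound by the zinc-finger protein CTCF. The same ring holds sister chromatids together in dividing cells, so both dividing and resting fibroblasts make use of it.

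The libraries held between 29861687 and 35317010 counted reads. HMGB1 itself had 181 and 237 CPM (read counts scaled to library depth with TMM factors) in the control libraries and 16.0 and 18.9 CPM in the knockdown libraries. Its log2-fold change was −3.59 ± 0.19 (SE, edgeR quasi-likelihood test, adjusted p = 0.00751), the direction the labels give. All 10 fibroblast markers were detected, with a summed level of 2.32e+04 to 4.53e+04 CPM. The summed level was at most 4.33 CPM for endothelial markers (3 of 4 matched, CDH5 at 0), 0.715 CPM for 5 epithelial markers (KRT5 and KRT14 at 0) and 0.346 CPM for 4 leukocyte markers (CD3E at 0).

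STAG2, one of the alternative STAG subunits, stood lowest against its control level among the 10 genes, while SMC1A, RAD21 and NIPBL lay highest. The study's methods call a gene where the adjusted p is below 0.01 and the log2-fold change exceeds 0.6 in size. At these thresholds edgeR without a term for the isolate, which is not the study's test, called 0 of the 10 genes up and 0 down. In this edgeR fit 0.0649% of the 15398 genes tested were called up and 0.136% down. At an unadjusted p below 0.05, 2 members were up (RAD21 and SMC1A) and 1 was down (STAG2), against 13.6% and 14.7% of all genes. With the isolate as a replicate block in the same test, 1 member was called up (SMC1A) and 1 down (STAG2), against 6.68% and 7.84% of all genes. DESeq2 without a block called 0 up and 1 down, against 725 and 817 of all 15398 genes. The study's methods correct the counts with RUVs, which estimates unwanted variation from replicates, before DESeq2. The number of factors is not named there, and 1 was used here. This called 0 members up and 1 down, STAG2 (log2-fold change −1.57, DESeq2 adjusted p = 1.5e-15). Of all 15398 genes it called 764 up and 831 down. With the adjusted p raised to 0.05 and the same fold, edgeR without the block had 0 up and 1 down (STAG2), against 3.73% and 4.34% of all genes. The 2 genes up at the unadjusted p became 0 without control replicate 1 and 0 without knockdown replicate 2. Over the members the median log2-fold change was −0.03, against −0.01 over all genes tested.

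**Figure D1:**
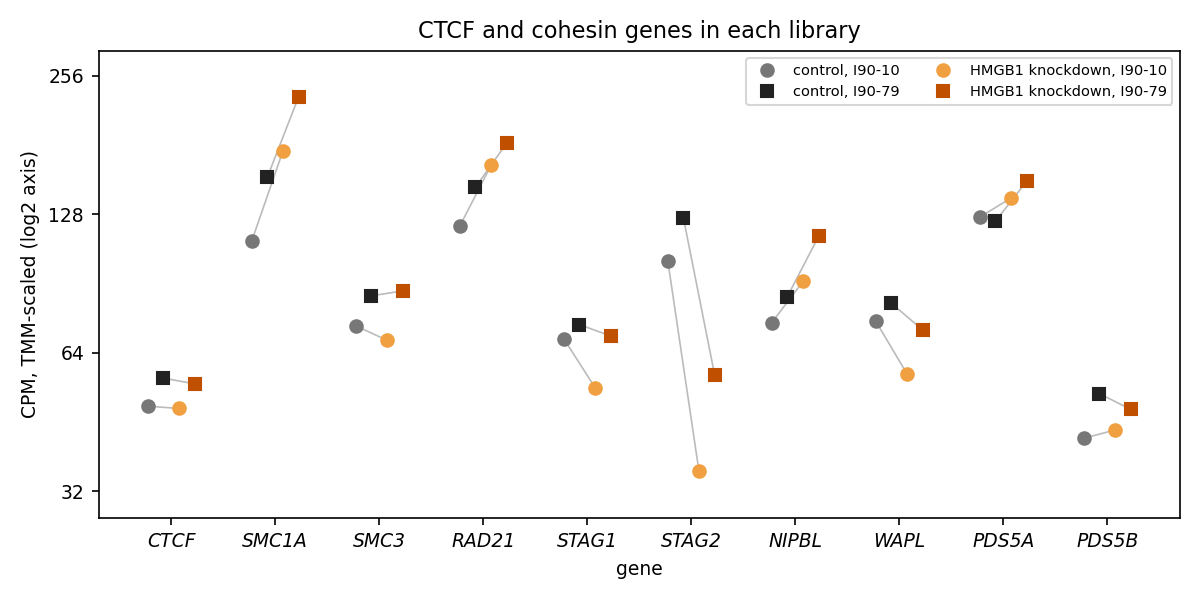
Level of the 10 genes in each library, in TMM-scaled CPM on a log2 axis. Grey and black points are control libraries, orange and brown points knockdown libraries, circles the isolate I90-10 and squares I90-79, with lines joining the libraries of 1 isolate. STAG2 moved from 101 and 126 CPM to 35.3 and 57.3 CPM, and CTCF stayed between 48.4 and 56.3 CPM.

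STAG2 had 101 CPM in control replicate 1, 126 CPM in control replicate 2, 35.3 CPM in knockdown replicate 1 and 57.3 CPM in knockdown replicate 2, from 1020 to 4629 reads. Both knockdown libraries lay far below both control libraries. Its level was 2.45-fold lower upon knockdown, a log2-fold change of −1.29 ± 0.26 (SE, 95% interval −1.94 to −0.64, edgeR adjusted p = 0.0456), which missed the threshold of 0.01. The replicate block brought it past that threshold, with a log2-fold change of −1.32 ± 0.12 and an edgeR adjusted p of 0.000183. Within the isolates the log2 difference was −1.52 in I90-10 and −1.13 in I90-79, so the gap was present in both. Leaving out 1 library at a time gave log2-fold changes of −0.99 (without knockdown replicate 1) to −1.68 (without knockdown replicate 2), at edgeR adjusted p from 0.013 to 0.105. Of all genes tested, 6.94% had a larger absolute log2-fold change than STAG2.

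STAG1, the other subunit of this pair, had 68.6 and 73.7 CPM in the control libraries and 53.7 and 69.6 CPM in the knockdown libraries. Here the groups overlapped, since the knockdown library of I90-79 lay above the control library of I90-10. The log2-fold change was −0.21 ± 0.16 (SE, 95% interval −0.60 to 0.19, edgeR adjusted p = 0.439). It was −0.35 in I90-10 and −0.08 in I90-79. The replicate block gave −0.22 at an edgeR adjusted p of 0.161. In the annotation, 21.3% of the exonic bases of STAG1 overlap PCCB on the opposite strand, a gene with 1299 to 1509 reads, and the sources used here do not give the strand setting of the counting. For STAG2 the overlap was 3.29%, with TENM1 and STAG2-AS1, each at 0 to 3 reads.

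Levels of different genes were compared per length of exon, in RPKM, that is TMM-scaled CPM divided by the length in kilobases. In the control libraries STAG2 had 13.9 ± 2.11 RPKM (SD, n = 2) and STAG1 9.10 ± 0.45 RPKM. In the knockdown libraries the order was turned, with 5.66 ± 1.90 RPKM for STAG2 and 7.89 ± 1.43 RPKM for STAG1. The ratio of STAG1 to STAG2 per kilobase within a library does not depend on how libraries are scaled. It was 0.710 and 0.614 in the control libraries, as compared with 1.59 and 1.27 after knockdown. Knockdown minus control, the log2 ratio differed by 1.17 in I90-10 and by 1.05 in I90-79, on average 1.11 ± 0.08 (SD of 2 isolates), a 2.16-fold higher ratio. As a share of both genes' RPKM, STAG1 was 41.5% and 38.0% in the control against 61.4% and 56.0% in the knockdown libraries. The summed level of the pair was 21.1 and 24.8 RPKM in the control libraries and 11.2 and 15.9 RPKM in the knockdown libraries. STAG1 thus lay below STAG2 in both control libraries and above it in both knockdown libraries, while the pair as a whole was lower. The smallest p of an exact two-sided permutation test on 2 against 2 libraries is 0.33, so no p is attached to the ratios.

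Of the SMC subunits, SMC1A had 112 and 154 CPM in the control libraries and 176 and 230 CPM in the knockdown libraries. Both knockdown libraries lay above both control libraries, although knockdown of I90-10 was close to the control of I90-79. The log2-fold change was 0.61 ± 0.21 (SE, 95% interval 0.07 to 1.15, edgeR adjusted p = 0.141), a 1.53-fold higher level that missed the threshold. With the replicate block the log2-fold change of SMC1A was 0.62 ± 0.09 and passed it, at an edgeR adjusted p of 0.00181. The isolates gave 0.65 and 0.58, and the value ranged from 0.40 (without control replicate 1) to 0.86 (without control replicate 2).

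SMC3, which pairs with SMC1A in the ring, had 73.2 and 85.1 CPM in the control libraries and 68.1 and 87.2 CPM in the knockdown libraries. The groups overlapped fully, and the log2-fold change was −0.03 ± 0.16 (SE, 95% interval −0.44 to 0.39, edgeR adjusted p = 0.931). Its sign differed between the isolates, −0.10 in I90-10 and 0.03 in I90-79. RAD21, the subunit that closes the ring and is cut when chromatids part, had 121 and 146 CPM in the control libraries and 163 and 183 CPM in the knockdown libraries. For RAD21 the groups did not overlap, and the log2-fold change was 0.37 ± 0.14 (SE, 95% interval 0.01 to 0.74, edgeR adjusted p = 0.170). With the replicate block it was 0.38 at an edgeR adjusted p of 0.0173, which missed both thresholds, 0.6 for the fold and 0.01 for the adjusted p. Of the exonic bases of RAD21, 14.2% overlap other genes, among them UTP23 with 365 to 676 reads.

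The ratios between ring subunits were computed within each library. The ratio of SMC1A to SMC3 per kilobase was 0.613 and 0.725 in the control libraries, as compared with 1.03 and 1.06 after knockdown, a log2 difference of 0.65 ± 0.15 (SD of 2 isolates). Which gene of this pair was higher depends on the exon lengths, since SMC1A had more CPM than SMC3 in every library. The log2 difference between the groups does not depend on the lengths. The ratio of RAD21 to SMC3 was 1.14 and 1.19 in the control against 1.66 and 1.45 in the knockdown libraries, a log2 difference of 0.41 ± 0.18. In both ratios the groups did not overlap, as in every ratio computed here, that of PDS5A to PDS5B included. How often such a gap occurs between other pairs of genes was not computed. SMC3 also shares 2.25% of its 50-base transcript pieces with other genes, first among them the pseudogene SMC3P1, which had 0 to 4 reads.

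**Figure D2:**
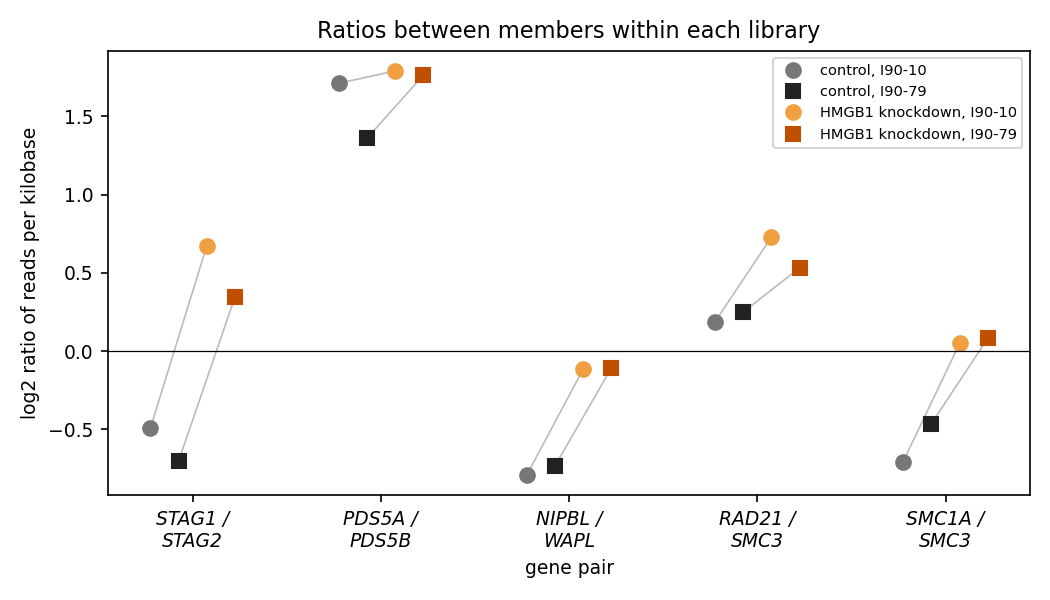
Log2 ratio of reads per kilobase between pairs of members, in each library. Circles are the isolate I90-10, squares I90-79, with lines joining control (grey, black) to knockdown (orange, brown). The ratio of STAG1 to STAG2 crosses 0, from 0.710 and 0.614 on the linear scale to 1.59 and 1.27.

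NIPBL, the loader of the ring, had 74.4 and 84.7 CPM in the control libraries and 91.4 and 115 CPM in the knockdown libraries. Both knockdown libraries were above both control libraries. The log2-fold change was 0.37 ± 0.15 (SE, 95% interval −0.02 to 0.76, edgeR adjusted p = 0.191). It was 0.30 in I90-10 and 0.43 in I90-79. The replicate block gave 0.37 at an edgeR adjusted p of 0.0217, which missed both thresholds.

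WAPL, which opens the ring for release, had 74.9 and 82.0 CPM in the control libraries and 57.5 and 71.7 CPM in the knockdown libraries. Both knockdown libraries were below both control libraries, although knockdown of I90-79 was close to the control of I90-10. Its log2-fold change was −0.28 ± 0.15 (SE, 95% interval −0.65 to 0.09, edgeR adjusted p = 0.276), with −0.38 in I90-10 and −0.19 in I90-79. With the replicate block the log2-fold change of WAPL was −0.29 (95% interval −0.52 to −0.05, edgeR adjusted p = 0.0635), which missed both thresholds. NIPBL and WAPL thus lay on opposite sides of their control levels, and neither passed the thresholds in either fit. Their ratio per kilobase, loader to release factor, was 0.577 and 0.601 in the control libraries, as compared with 0.923 and 0.928 after knockdown. The log2 difference of 0.65 ± 0.04 (SD of 2 isolates) had the smallest spread between isolates of the 5 ratios computed.

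The PDS5 proteins bind the ring together with WAPL and also protect cohesion. PDS5A had 126 and 123 CPM in the control libraries and 139 and 151 CPM in the knockdown libraries. The groups of PDS5A did not overlap, but the log2-fold change was 0.22 ± 0.11 (SE, 95% interval −0.07 to 0.50, edgeR adjusted p = 0.268). With the replicate block it was 0.21 at an edgeR adjusted p of 0.122. PDS5B had 41.7 and 52.1 CPM in the control libraries and 43.5 and 48.2 CPM in the knockdown libraries, so the knockdown libraries lay between the control libraries. Its log2-fold change was −0.03 ± 0.15 (SE, 95% interval −0.42 to 0.35, edgeR adjusted p = 0.907). The ratio of PDS5A to PDS5B was 3.27 and 2.56 in the control against 3.46 and 3.39 in the knockdown libraries. Its log2 difference of 0.24 ± 0.23 was about as large as its spread between isolates.

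CTCF, the boundary protein, had 49.0 and 56.3 CPM in the control libraries and 48.4 and 54.8 CPM in the knockdown libraries. The libraries ordered by isolate and not by group. Its log2-fold change was −0.03 ± 0.13 (SE, 95% interval −0.37 to 0.31, edgeR adjusted p = 0.908). With the replicate block the 95% interval was −0.25 to 0.20, so a change of the size seen for STAG2 lay outside the intervals of both fits.

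Across the 10 genes, the CPM of the groups did not overlap in 6, with RAD21, SMC1A, NIPBL and PDS5A higher and STAG2 and WAPL lower upon knockdown. Such a gap was found upward in 29.8% and downward in 30.2% of all genes tested, so these counts of 4 and 2 are near the background. The direction was the same in both isolates for 8 of the 10 genes, against 78.3% of all genes.

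**Figure D3:**
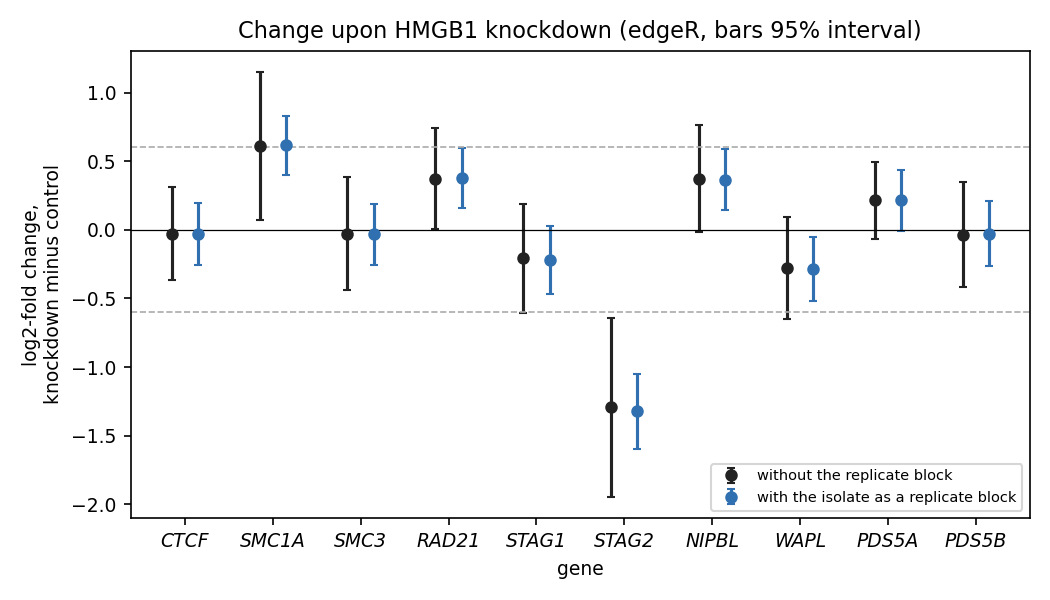
Log2-fold change of each gene upon HMGB1 knockdown, with its 95% interval, from edgeR without (black) and with (blue) the isolate as a replicate block. Dashed lines mark the fold threshold of 0.6. With the block the intervals narrow, that of STAG2 to −1.60 to −1.05 and that of SMC1A to 0.40 to 0.83.

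In the control libraries the order of the members per length was RAD21 (21.6 ± 2.95 RPKM, SD, n = 2), SMC3 (18.5 ± 1.97), STAG2 (13.9 ± 2.11), SMC1A (12.5 ± 2.79), CTCF (12.2 ± 1.21), WAPL (10.8 ± 0.69), PDS5A (10.2 ± 0.15), STAG1 (9.10 ± 0.45), NIPBL (6.35 ± 0.58) and PDS5B (3.55 ± 0.56). STAG2, SMC1A and CTCF differed from their neighbours among these 3 by less than the SDs of both. WAPL differed from PDS5A by less than its own SD. By these SDs, NIPBL and PDS5B stood clear of the genes above them. The SDs leave out the choice of exon length, 4.275 kb for SMC3 and 13.212 kb for PDS5B in the count files. The SMC3 exons there end at chr10:112364394, before the GENCODE 3′ UTR bases chr10:112365130-112365159 of SMC3. How the order changes with other lengths was not computed. The knockdown libraries had RAD21 (27.9 ± 2.19) and SMC1A (19.03 ± 3.61) at the head, next to SMC3 (18.2 ± 3.15), while STAG2 (5.66 ± 1.90) had dropped to the place before PDS5B (3.47 ± 0.25). The sum over the 10 members was 109 and 128 RPKM in the control libraries and 111 and 135 RPKM in the knockdown libraries, so it differed more between isolates than between groups.

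The levels differed between the isolates too, in 1 direction. Each isolate has its own replicate number, so the isolate and anything else that differed between the replicates cannot be told apart. In the fit with group and isolate, all 10 members were higher in I90-79 than in I90-10, by 0.05 to 0.50 on the log2 scale, with a median of 0.24. Over all genes the median was 0.01, and 50.8% were higher in I90-79. By the calling thresholds edgeR had 0 members higher and 0 lower in I90-79, against 0.442% and 1.23% of all genes. DESeq2 had 0 and 0, against 166 and 284 of 15398 genes. At an unadjusted p below 0.05, 5 members were higher, against 10.4% of all genes. Without a fold threshold, at an adjusted p below 0.05, 2 members passed, against 2.7% of all genes. These were SMC1A (0.42 ± 0.09, edgeR adjusted p = 0.0343) and STAG2 (0.50 ± 0.12, edgeR adjusted p = 0.0451).

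The isolate gap of SMC1A was 0.46 between the control libraries and 0.39 between the knockdown libraries. For STAG2 these values were 0.31 and 0.70. Only PDS5A had a gap of the other sign in either group, −0.03 between the control libraries. Proliferation markers moved with the isolate as well. Their summed level was 703 and 788 CPM in the I90-10 libraries and 1278 and 980 CPM in the I90-79 libraries, and 12 of 14 were higher in I90-79 at an unadjusted p below 0.05. Of the 10 fibroblast markers, 10 were lower in I90-79 at this p, and 6 were called down, against 1.23% of all genes called down. The share of all genes lower at the unadjusted p is not given here. Cohesin genes are used in dividing cells, and the part of the growth state in the isolate difference was not tested.

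**Figure D4:**
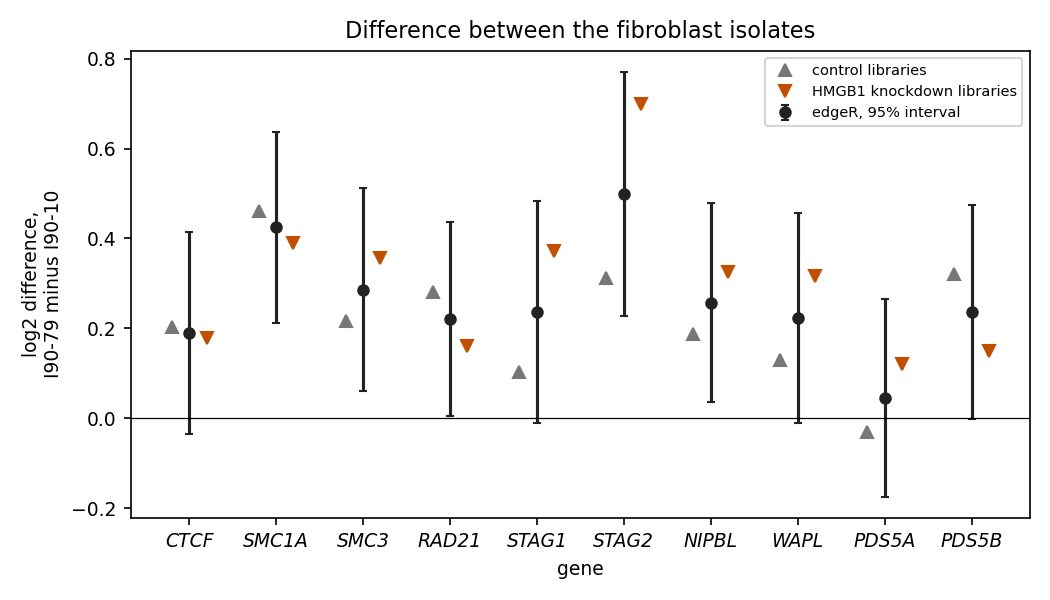
Difference between the isolates on the log2 scale, I90-79 minus I90-10, for each gene. Black points with bars are edgeR estimates with their 95% interval, and triangles are the differences within the control (grey) and the knockdown (brown) libraries. Every estimate is above 0, from 0.05 for PDS5A to 0.50 for STAG2.

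Other genes of the pathway were taken from 5 lists chosen by function, of which 54 of 55 genes were matched and 45 tested. edgeR called 0 of them up and 0 down at the thresholds above. With the replicate block 0 were called up and 2 down, the loader subunit MAU2 and SLF2, a recruiter of the related SMC5/6 complex. Of all genes tested, the block called 6.68% up and 7.84% down. DESeq2 called 0 of the 45 up and 2 down, against 725 and 817 of all 15398 genes. At an unadjusted p below 0.05, 3 of 10 cohesin regulators passed (SGO1 up, MAU2 and ESCO1 down), 1 of 2 tested germline cohesin genes (REC8, up), 3 of 9 genes of the SMC5/6 complex (SMC6, NSMCE3 and SLF2, all down), 3 of 13 CTCF partners (MAZ up, PATZ1 and KPNA1 down) and 0 of 11 genes at CTCF-dependent loci. Of all genes tested, 28.3% passed in either direction.

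MAU2, which works with NIPBL, had 69.4 and 69.7 CPM in the control libraries and 36.7 and 37.1 CPM in the knockdown libraries. The libraries of a group were nearly equal and the groups far apart. The log2-fold change of MAU2 was −0.91 ± 0.11 (SE, edgeR adjusted p = 0.0161), and with the replicate block −0.91 at an edgeR adjusted p of 0.000395. The loader subunits MAU2 and NIPBL therefore lay on opposite sides of their control levels.

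SLF2 had 61.1 and 57.6 CPM in the control libraries and 34.6 and 40.3 CPM in the knockdown libraries. Its log2-fold change was −0.66 ± 0.13 (SE, edgeR adjusted p = 0.0435), and the replicate block gave −0.67 at an edgeR adjusted p of 0.00311. The acetyltransferase ESCO1, which locks cohesin on chromatin, had a log2-fold change of −0.59 (edgeR adjusted p = 0.132). SGO1, which protects cohesion at centromeres, had 0.86 (edgeR adjusted p = 0.168). The median log2-fold change was 0.16 for the cohesin regulators, −0.26 for the SMC5/6 complex and −0.01 for the CTCF partners.

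Genes known to depend on CTCF, at the protocadherin beta cluster and at IGF2 and H19, gave no call. The smallest p belonged to PCDHB7 (log2-fold change −0.95, edgeR adjusted p = 0.293), PCDHB12 (−0.85, edgeR adjusted p = 0.296) and IGF2 (0.89, edgeR adjusted p = 0.371). Both protocadherin genes were at most 2.96 CPM in any library. IGF2 had 7.42 and 14.1 CPM in the control libraries and 9.73 and 30.2 CPM in the knockdown libraries, with the isolate I90-79 high in both groups. CTCFL, the germline paralogue of CTCF, had 0 reads in every library.

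Among the 14 proliferation markers, PCNA was the only one at an unadjusted p below 0.05 without the replicate block. With the block 6 of 14 passed, RRM2 and E2F1 up and MKI67, TOP2A, PCNA and MCM2 down, against 43.6% of all genes in either direction. It had 90.1 and 121 CPM in the control libraries and 51.7 and 53.5 CPM in the knockdown libraries, a log2-fold change of −1.01 ± 0.17 (SE, edgeR adjusted p = 0.0320; with the replicate block 0.000607). The list as a whole had a median of 0.08, and its summed level was 703 and 1278 CPM in the control libraries and 788 and 980 CPM in the knockdown libraries.

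**Figure D5:**
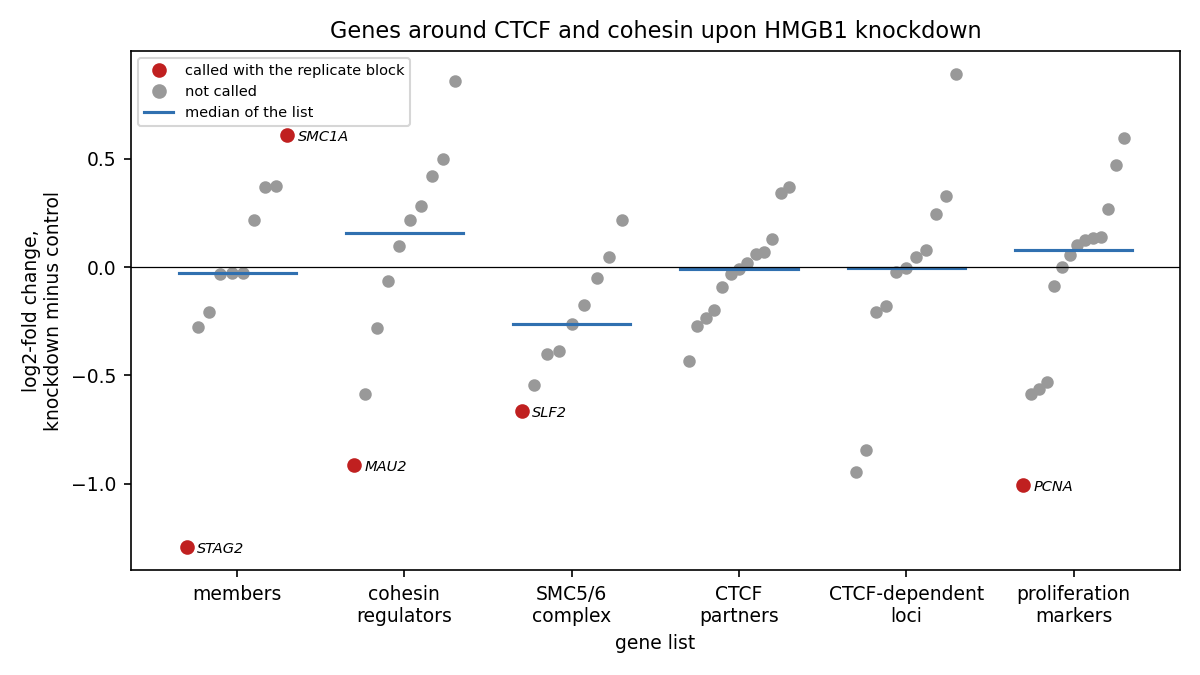
Log2-fold change upon HMGB1 knockdown of the 10 members and of 5 lists of related genes, from edgeR without the block. Each point is a gene, red points were called with the replicate block and blue lines are list medians. STAG2 at −1.29, PCNA at −1.01, MAU2 at −0.91 and SLF2 at −0.66 were called lower with the block, and SMC1A at 0.61 was called higher.

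The 3′ UTRs of the members were read from the GENCODE annotation on GRCh37 (hg19), for the 6-letter word GCAGTT in the sense of the mRNA. The word was taken from an earlier result of these counts, in which genes whose 3′ UTR held it were lower upon knockdown, so it is a description here, with no test. STAG2 held 3 copies within 2059 bases and SMC1A 2 within 5954 bases. SMC3, WAPL, PDS5A and PDS5B held 1 each, and CTCF, RAD21, STAG1 and NIPBL held 0. The copies in STAG2, the member with the most, and in SMC1A, which lay on the other side of its control level, are shown 5′ to 3′ with the word in capitals. They lie at chrX:123234586-123234615, chrX:123235359-123235388 and chrX:123236182-123236211 on the plus strand for STAG2, and at chrX:53406506-53406535 and chrX:53404363-53404392 on the minus strand for SMC1A.
STAG2 site 1: gtgcattgagggGCAGTTttgtttgcctga
STAG2 site 2: ttttataattgcGCAGTTtgtttagttttt
STAG2 site 3: ttctttgtgaaaGCAGTTcttacagctttg
SMC1A site 1: taggagtcttagGCAGTTacctgaaactgc
SMC1A site 2: taatgagaagcaGCAGTTccctgcttgcac

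Of 12556 tested genes with a 3′ UTR of at least 100 bases, 35.9% held the word, 14.1% at least 2 copies and 5.76% at least 3. The median log2-fold change was −0.16 with the word, −0.32 with at least 3 copies and 0.07 without it. Genes with the word also had longer 3′ UTRs, with a median of 2836 bases against 874 bases. The word was taken from these same counts, so these medians do not test it. STAG2 held 3 copies in 2059 bases and STAG1 0 in 2018 bases, and both had a negative log2-fold change. SMC1A with 2 copies had a log2-fold change of 0.61 and PDS5A with 1 copy had one of 0.22. MAU2 held 1 copy in 2972 bases, SLF2 held 2 in 3222 bases and PCNA 1 in 330 bases. Other genes of the lists had a negative log2-fold change with 0 copies, among them ESCO1 (−0.59), PATZ1 (−0.44) and PCDHB7 (−0.95). SLF1, a partner of SLF2, held 4 copies and had a log2-fold change of −0.18. Whether the word has a part in these values was not tested.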

How the data were processed

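Poly(A) RNA was sequenced from 4 libraries of IMR90. The authors mapped reads to hg19 with STAR and counted them on genes with featureCounts, and the deposited values are raw counts per gene, one file per library. Tool versions, the strand setting and the counting of read pairs are not given in the sources used here. Totals per library were 29861687 to 35317010 counts.

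From these counts, edgeR 4.0.16 in R 4.3.3 (limma 3.58.1) was run on all 4 libraries with filterByExpr (15398 genes kept), TMM and its quasi-likelihood test, with p adjusted by Benjamini-Hochberg over all genes. SEs were computed from the fold change and its test statistic. Both isolates occur in both groups, so replicate numbers pair the libraries by isolate. Across 15398 genes the isolate difference in the control libraries and that in the knockdown libraries had r = 0.464. The main fit had no term for the isolate, and the replicate block was an alternative.

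Further alternatives were DESeq2 1.42.0 with and without the block, RUVs with 1 factor and DESeq2, other size factors, other filters, bias-adjusted deviances, other thresholds and leaving out each library. The statistics were tested on simulated counts with a fixed spread and no isolate difference, so that test cannot tell which fit suits these libraries. RPKM used the exon length of the count files. The members and lists were chosen with earlier results of these data known. Named were all members, HMGB1, overlapping genes and pseudogenes of members, and in other lists the called genes and the 3 with the smallest p. CTCFL, SLF1, STAG2-AS1 and genes counted by name were added after their values were seen. The 3′ UTRs came from GENCODE v44 mapped to GRCh37, 1 transcript per gene (MANE Select, otherwise Ensembl canonical or the longest 3′ UTR), and each printed stretch read the same in the genome sequence. PECAM1 and PCDHB16 were not matched to an identifier and not analysed here.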

Additional observations from a re-analysis of the deposited data

Results flagged for a closer look

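SMC3 and PDS5B moved in opposite directions in the isolates. For SMC3 the log2 difference, knockdown minus control, was −0.10 in I90-10 and 0.035 in I90-79. For PDS5B it was 0.059 in I90-10 and −0.11 in I90-79. With 1 library per group and isolate, the difference between the isolates was not tested, and all of these values lie within the 95% intervals of the genes' log2-fold changes.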

How the results depend on the processing

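With 2 libraries per group the calls rested on how the spread was estimated. Against 0 members called up and 0 down, 1 was called up with the replicate block, with DESeq2 and the replicate block, and without a filter on low counts. With these settings, DESeq2 alone, RUVs or an adjusted p below 0.05, 1 was called down. Of the other cohesin and CTCF genes, 2 were called down under the same 6 settings, and 1 was called up with DESeq2 and the replicate block and without a filter. At an unadjusted p below 0.05, 2 members up became 1 with RUVs and with at least 10 counts in every library, and 0 to 3 when 1 library was left out. The 1 member down became 2 with RUVs and with the replicate block. Leaving out control replicate 2 or knockdown replicate 1 turned the sign of the log2-fold change of CTCF (0.076 and 0.055), SMC3 (0.086 and 0.14) and PDS5B (0.14 and 0.036). Over all libraries left out in turn, these ranged from −0.13 to 0.076 for CTCF, from −0.21 to 0.14 for SMC3 and from −0.19 to 0.14 for PDS5B. The log2 difference of the ratio of STAG1 to STAG2 ranged from 0.95 to 1.27 with 1 library left out. STAG2 was lower and SMC1A higher under every alternative, called in 5 and 3 of 10 settings on all libraries. The replicate block changed no call of the other 8 members. Over all genes, the called counts of 10 up and 21 down became 1028 and 1207 with the replicate block, and 725 and 817 with DESeq2. The causes of these shifts were not tested.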
